A study of Mus musculus with 6 samples.

Results

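The Nrf2 and glutathione antioxidant genes examined here are the transcription factor gene Nfe2l2, which encodes Nrf2, its inhibitor Keap1, and 8 enzyme genes, namely Nqo1, Gclc, Gclm, Hmox1, Txnrd1, Srxn1, Gpx1 and Gpx2. They were chosen by name, and every probe set whose only gene symbol was one of these names was kept. This gave 19 probe sets of the 45037 tested, and 10 genes of the 18193 that had a probe set with a single symbol. All 10 genes were measured, and 6 of them had more than 1 probe set. Total RNA from the colon of 3 HDAC1/2 deficient mice and 3 control mice was hybridized to Affymetrix whole-genome mouse arrays, with 3 arrays per group. The paper does not state that each array held the RNA of 1 mouse. The SDs, intervals and p-values below measure variation between mice only if each did. By the labels and the paper the mice were untreated and 4 months old. The deficient mice carried floxed HDAC1 and HDAC2 together with a villin-Cre transgene, and the control mice are labelled wild type. The villin promoter drives Cre in the epithelium of the intestine, so that other cells of the colon keep both genes. The labels name epithelium as the source, whereas the extraction protocol gives colon RNA.

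Nrf2 is a basic leucine zipper factor that Keap1, an adaptor of a Cul3 ubiquitin ligase, marks for degradation in unstressed cells. Oxidants and electrophiles modify cysteines of Keap1, after which Nrf2 accumulates, pairs with small Maf proteins and binds antioxidant response elements near genes for glutathione synthesis, thioredoxin recycling, quinone reduction and NADPH supply. Because this control acts on the protein, the mRNA of Nfe2l2 is not a measure of Nrf2 activity. Histone deacetylases such as HDAC1 and HDAC2 remove acetyl groups from histones and other proteins. In the gut, the epithelium faces oxidants from food, bacteria and inflammatory cells, and Gpx2 is the glutathione peroxidase typical of the gastrointestinal epithelium.

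Of the 10 genes, 7 were higher in the HDAC1/2 deficient colon when each gene was read from its brightest probe set, and none was lower. Keap1, Gclc, Gclm, Hmox1, Txnrd1, Srxn1 and Gpx2 rose, by between 1.23-fold (Srxn1) and 1.55-fold (Gclc). Nfe2l2, Nqo1 and Gpx1 did not pass the test, with log2 fold changes of -0.01, 0.11 and -0.05. Over all 18193 genes, 50.4% passed the same test, 21.9% as higher and 28.4% as lower. By probe set, 11 of 19 were higher, 1 was lower and 7 did not pass. That is 63.2% past the test, against 39.8% of all probe sets (18.8% higher and 21.0% lower). Only 2 of the 19 were at or below the array median, and dim probe sets passed less often. Fitted above percentile 40 of mean signal alone, 7672 probe sets were higher and 8768 lower, against 8475 and 9458 of all 45037. Of the 17 members in that fit, 11 were higher and 0 lower. The 39.8% is therefore not a share among probe sets of like signal. The median log2 fold change was 0.29 over the 19 probe sets and -0.01 over all 45037. No member probe set both passed the test and exceeded a 2-fold change, which 2.79% of all probe sets did. Values are RMA log2 signals, a probe set passes at a limma p below 0.05 after Benjamini-Hochberg adjustment over all 45037, and fold changes are deficient over control.

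**Figure D1:**
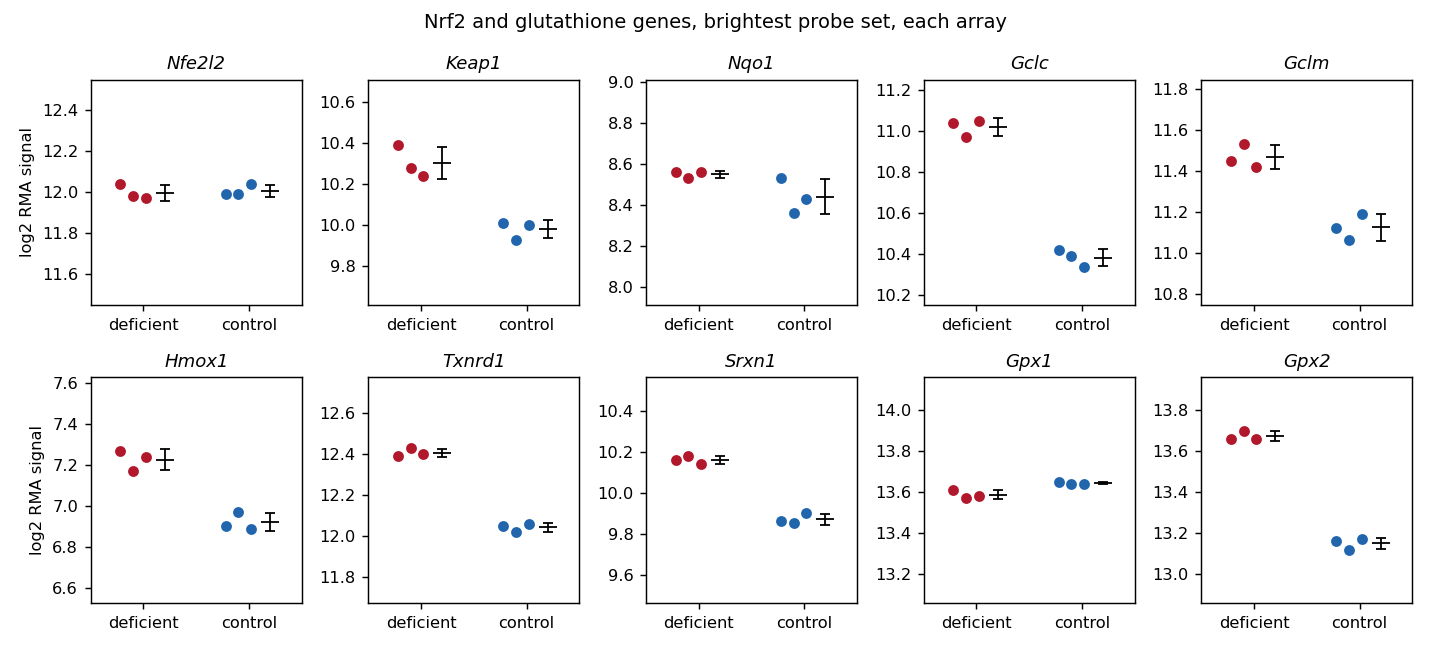
Log2 RMA signal (vertical axis) of the brightest probe set of each of the 10 genes on every array, with HDAC1/2 deficient mice left and control mice right in each pair. Points are arrays, and the black marks beside them are the group mean with its SD (n = 3 each). The deficient points of Gclc, Gclm, Gpx2, Hmox1, Keap1, Srxn1 and Txnrd1 lie above all their control points, while those of Nfe2l2 overlap.

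Sequence around the start sites was examined because several of these genes moved together and the binding letters of Nrf2 are well known. RefSeq windows of 250 bases before and 50 bases after a start site (build GRCm38.p6) were at hand for 8 of the 10 genes, all but Gclc and Hmox1. The core of the antioxidant response element was searched as TGACNNNGC on both strands, N being any base. It occurred in the windows of 4 of the 8 genes, against 12.4% of the 32851 windows of all genes, or 14.0% of 27025 genes with any window. These were Nfe2l2, Gclm, Txnrd1 (in the second of its 3 windows) and Srxn1. The matches are shown with their neighbouring bases on the strand of the gene, the core in capitals. The first, at chr2:75704887-75704911 (minus strand), begins at position -240 from the start site and reads along the gene, whereas the other 3, at chr3:122245415-122245439, chr10:82859106-82859130 and chr2:152105544-152105568 (plus strand), begin at -134, -92 and 29 and hold the core on the opposite strand.
Nfe2l2: agcccaccTGACTCCGCcatgcccc
Gclm: tcccgggcGCACCGTCAactctcac
Txnrd1: ggatttttGCTTTGTCAttctgaca
Srxn1: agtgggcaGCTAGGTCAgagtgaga
The windows of Keap1, Nqo1, Gpx1 and Gpx2 held neither this core nor the letters below, which says only that these letters are not in these windows. Srxn1, which encodes sulfiredoxin, held further related letters, and its 250 bases before the start site (chr2:152105274-152105523, plus strand) are shown for that reason. The capitals mark TGAGNNNGC on the opposite strand at -158, TGACTCA on the opposite strand at -102, and at -45 TGAGNNNGC on the gene's strand, which overlaps TGACTCA on the other strand.
Srxn1: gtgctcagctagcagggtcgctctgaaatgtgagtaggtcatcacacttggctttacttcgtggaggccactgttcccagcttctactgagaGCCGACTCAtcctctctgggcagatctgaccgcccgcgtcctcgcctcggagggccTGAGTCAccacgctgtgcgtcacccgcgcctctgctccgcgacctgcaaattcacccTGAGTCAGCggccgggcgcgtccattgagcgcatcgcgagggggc
TGAGNNNGC, a form of the core searched after the data had been seen, was in 17.6% of all windows, and the AP-1 letters TGACTCA were in 5.20%. Among genes with a window and a brightest probe set, 23.6% of the 2334 whose window held TGACNNNGC were higher and 30.3% lower in deficient colon, compared with 22.2% and 28.5% of the 12118 whose window lacked it. The letters are a description of these windows, and binding was not measured.

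The regulator genes differed from each other. Nfe2l2 was level, with log2 signals of 12.04, 11.98 and 11.97 in deficient colon, against 11.99, 11.99 and 12.04 in control colon (1416543_at). The groups overlapped, and the log2 fold change of -0.01 had a 95% interval from -0.11 to 0.09 (limma adjusted p = 0.884). Its second probe set, 1457117_at, was dim, below the median of the arrays, with 5.94, 5.61 and 5.80 in deficient colon and 6.15, 6.11 and 6.28 in control colon. All 3 deficient values were below the control values (log2 fold change -0.40, SE 0.088, limma adjusted p = 0.00845), and this is the only member probe set that fell. The 2 probe sets of Nfe2l2 thus give different limma calls. By the methods' t-test, 1457117_at had p = 0.0338 unadjusted, as the paper used it, and 0.095 after adjustment. Keap1, the adaptor that holds Nrf2 in the cytoplasm, read 10.39, 10.28 and 10.24 in deficient colon and between 9.93 and 10.01 on the 3 control arrays (1450746_at). Every deficient array was above every control array, and Keap1 rose 1.25-fold (log2 fold change 0.32, SE 0.054, limma adjusted p = 0.00207). The dimmer Keap1 probe set 1450747_at had 7.42, 7.68 and 7.45 in deficient and 7.41, 7.26 and 7.33 in control colon, a log2 fold change of 0.19 that did not pass (adjusted p = 0.101). Keap1 minus Nfe2l2, each by its brightest probe set, was -1.64, -1.69 and -1.73 in deficient colon and -1.98, -2.05 and -2.03 in control colon, so the log2 change of Keap1 was larger by 0.33 (SE 0.035). The exact two-sided permutation p was 0.1, the smallest that 3 against 3 arrays allow, and it remained 0.1 after adjustment over the 3 pairs of genes compared this way.

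Gclc and Gclm encode the catalytic and the modifier subunit of glutamate-cysteine ligase, the rate-limiting enzyme of glutathione synthesis. Gclc had the largest change of the 10 genes. Its probe set 1455959_s_at read 11.04, 10.97 and 11.05 in deficient colon and 10.42, 10.39 and 10.34 in control colon (1.55-fold, log2 fold change 0.64, SE 0.046, limma adjusted p = 2.77e-05). A second Gclc probe set, 1424296_at, read 10.36, 10.61 and 10.37 in deficient colon and 9.63, 9.55 and 9.62 in control colon (1.80-fold, log2 fold change 0.85, SE 0.072, limma adjusted p = 6.28e-05). With both probe sets the groups lay well apart, and their absolute changes stood at percentiles 92.2 and 95.8 of all probe sets. Gclm moved less. It had 11.45, 11.53 and 11.42 in deficient colon and 11.12, 11.06 and 11.19 in control colon by 1418627_at, a 1.27-fold rise (log2 fold change 0.34, SE 0.052, limma adjusted p = 0.00121). By 1439050_at Gclm had 10.30, 10.16 and 10.20 in deficient and 9.89, 9.73 and 9.84 in control colon, a 1.32-fold rise (log2 fold change 0.40, SE 0.059, limma adjusted p = 0.00121). No array of either group crossed into the other in any of these 4 probe sets. Gclc minus Gclm was -0.42, -0.56 and -0.37 in deficient colon, against -0.70, -0.67 and -0.85 in control colon, a difference in log2 change of 0.29 (SE 0.08) with an exact permutation p of 0.1, the smallest possible.

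Hmox1, the heme oxygenase that breaks heme into biliverdin, iron and carbon monoxide, and Nqo1, a quinone reductase, are classical Nrf2 targets measured by 1 probe set each. Hmox1 read 7.27, 7.17 and 7.24 in deficient colon and 6.90, 6.97 and 6.89 in control colon (1448239_at). Its groups did not overlap and it rose 1.24-fold (log2 fold change 0.31, SE 0.047, limma adjusted p = 0.00134). The mean Hmox1 signal of 7.07 was little above the array medians of 6.78 to 6.81. Nqo1 had 8.56, 8.53 and 8.56 in deficient colon and 8.53, 8.36 and 8.43 in control colon (1423627_at). The lowest deficient and the highest control array were equal to the second decimal. The log2 fold change of Nqo1 was 0.11 with a 95% interval from -0.01 to 0.23, and it did not pass (limma adjusted p = 0.138). Without control replicate 1, the highest of the control arrays, it became 0.15 with an adjusted p of 0.0495.

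Txnrd1 encodes the cytosolic thioredoxin reductase, a selenoprotein that returns thioredoxin to its reduced form with NADPH. Its bright probe set 1421529_a_at gave 12.39, 12.43 and 12.40 in deficient colon and 12.05, 12.02 and 12.06 in control colon. The groups stood clearly apart and Txnrd1 rose 1.29-fold by it (log2 fold change 0.36, SE 0.039, limma adjusted p = 2.11e-04). The other 2 Txnrd1 probe sets were near or below the median of the arrays and their groups overlapped. Of these, 1424486_a_at had 6.73, 7.04 and 6.81 in deficient and 6.76, 6.66 and 6.88 in control colon (log2 fold change 0.10, adjusted p = 0.45), and 1424487_x_at had 5.93, 5.82 and 5.78 in deficient and 5.54, 5.79 and 5.64 in control colon (log2 fold change 0.19, adjusted p = 0.0816). Without control replicate 2 the change of 1424487_x_at was 0.25 and passed (adjusted p = 0.0218). Which transcripts of Txnrd1 the 3 probe sets read is not given in the sources used here.

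Srxn1, whose product sulfiredoxin repairs overoxidized peroxiredoxins, had 4 probe sets, of which 3 rose. The brightest, 1426875_s_at, read 10.16, 10.18 and 10.14 in deficient colon and 9.86, 9.85 and 9.90 in control colon (1.23-fold, log2 fold change 0.29, SE 0.04, limma adjusted p = 7.10e-04). With 1451680_at, Srxn1 read 8.25, 8.23 and 8.23 in deficient colon and 7.99, 7.92 and 7.95 in control colon, which was the same log2 fold change of 0.29 (limma adjusted p = 8.93e-04). The deficient and control arrays were separate in both. By 1425351_at the values were 7.38, 7.35 and 7.43 in deficient and 7.21, 6.94 and 7.12 in control colon (log2 fold change 0.30, limma adjusted p = 0.0136), a call not made by the methods' t-test (adjusted p = 0.146). The fourth, 1419942_at, overlapped, with 7.58, 7.58 and 7.61 in deficient and 7.57, 7.70 and 7.38 in control colon (log2 fold change 0.04, adjusted p = 0.738).

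The glutathione peroxidases Gpx1 and Gpx2 both reduce peroxides with glutathione and both carry selenocysteine, Gpx1 in most cells and Gpx2 mainly in gut epithelium. Gpx2 read 13.66, 13.70 and 13.66 in deficient colon and 13.16, 13.12 and 13.17 in control colon (1449279_at). Every deficient array exceeded every control array, and the rise was 1.44-fold (log2 fold change 0.52, SE 0.04, limma adjusted p = 3.84e-05). Gpx1 read 13.61, 13.57 and 13.58 in deficient colon and 13.65, 13.64 and 13.64 in control colon (1460671_at). Its groups were also separate, with the deficient arrays lower, but by only -0.05 on the log2 scale (95% interval -0.14 to 0.04, limma adjusted p = 0.354). With a trended, robust variance model the same Gpx1 difference passed (adjusted p = 0.0292). Gpx2 minus Gpx1 was 0.05, 0.12 and 0.08 in deficient colon and -0.49, -0.52 and -0.46 in control colon, so the log2 changes of these relatives differed by 0.57 (SE 0.027, exact permutation p = 0.1, the smallest possible). In all, 15 of the 19 member probe sets (78.9%) had groups that did not overlap, as did 50.0% of all probe sets. The latter share includes dim probe sets, whereas only 2 of the 19 were at or below the array median.

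**Figure D2:**
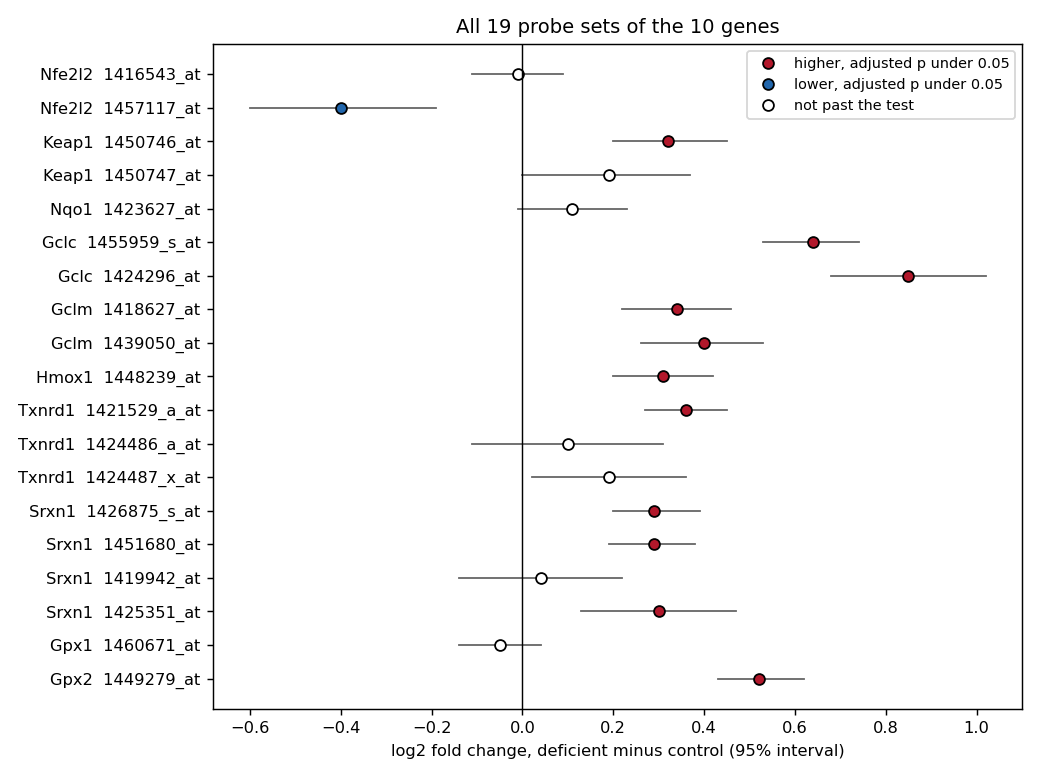
Log2 fold change, HDAC1/2 deficient over control (horizontal axis), of all 19 probe sets of the 10 genes, with 95% intervals from limma (n = 3 arrays per group) and colour for the call. The 2 Gclc probe sets lie farthest right at 0.64 and 0.85, and the dim second probe set of Nfe2l2 is the only one called lower, at -0.40.

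The other genes of these pathways did not move as one. Of 128 listed genes around the members, 121 were measured, and 43 were higher, 42 lower and 36 not past the test. Over all 18193 genes, 21.9% were higher and 28.4% lower. The median log2 fold change was 0.01 for the listed genes (all genes -0.02). Ggt1, Prdx1, Prdx5, Prdx6, G6pdx, Ftl1 and Esd had no probe set with a single symbol and were not measured. Counts and values in the following lists use the brightest probe set of each gene, and the genes given are the largest changes past the limma test in their list.

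NADPH supply, which feeds glutathione and thioredoxin reductase, was the list with the highest median. Of its 9 measured genes, 7 were higher, 1 lower and 1 not past the test, with a median of 0.46. Me1, the cytosolic malic enzyme, read 11.09, 11.08 and 10.92 in deficient colon and 9.47, 9.41 and 9.37 in control colon (3.05-fold, log2 fold change 1.61, SE 0.058, limma adjusted p = 1.11e-06). The deficient arrays were thus far above the control arrays. Taldo1 (0.54) and Pgd (0.50), enzymes of the pentose phosphate pathway, and Idh1 (0.48), the cytosolic isocitrate dehydrogenase, rose by less.

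Among 22 measured genes of glutathione synthesis, recycling and breakdown, 10 were higher, 5 lower and 7 not past the test (median 0.12). Enzymes on the breakdown side went both ways. Oplah, which returns 5-oxoproline to glutamate, had 7.02, 7.17 and 7.00 in deficient colon and 8.50, 8.44 and 8.48 in control colon (log2 fold change -1.41, SE 0.056, limma adjusted p = 1.68e-06). Chac1, which cleaves glutathione, had 7.52, 7.67 and 7.52 in deficient colon and 6.52, 6.72 and 6.66 in control colon (log2 fold change 0.94, SE 0.068, limma adjusted p = 2.74e-05). Both separated the groups, in opposite directions. The amino acid carrier Slc1a4 rose (0.86) and Ggt6, a gamma-glutamyltransferase family gene, fell (-0.85). Next to the members in the pathway, and chosen after their values were seen, stand Gsr, Slc7a11 and Gss. Gsr, the glutathione reductase, had 12.09, 12.06 and 12.08 in deficient colon and 11.39, 11.32 and 11.39 in control colon, a 1.64-fold rise (limma adjusted p = 9.48e-06), and both its probe sets rose. Slc7a11, the cystine carrier, rose by 0.43 in its brightest probe set, whose mean was below the median of the arrays, and 1.02 in the other. Gss, the synthetase that follows glutamate-cysteine ligase, was at -0.12 with an adjusted p of 0.0476, which reached 0.135 when single arrays were left out.

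Of 6 other glutathione peroxidases, Gpx4 (0.43), which reduces lipid hydroperoxides, and the secreted Gpx3 (0.35) rose, Gpx8 (-0.21) and Gpx7 (-0.20) of the endoplasmic reticulum fell, and 2 did not pass. The falls of Gpx7 and Gpx8 did not hold when single arrays were left out (adjusted p up to 0.0898 and 0.0836). Of 15 measured thioredoxins, peroxiredoxins and related genes, 5 were higher, 4 lower and 6 not past the test (median 0.09). By the brightest probe sets, the 4 largest changes were all falls. These were in Txnip, which binds thioredoxin (-0.87), Msra (-0.61) and Msrb1 (-0.33), which repair oxidized methionine, and Txnrd2, the mitochondrial thioredoxin reductase (-0.53). Prdx2 did not pass by its brightest probe set (0.05), but its other probe set was higher, at 1.46. All 4 probe sets of Txnrd2 were lower, at 7.81, 7.98 and 7.77 in deficient colon against 8.42, 8.33 and 8.40 in control colon for the brightest. Among the superoxide dismutases and catalase, Sod3 (0.41) and Sod1 (0.20) rose, Cat fell (-0.29) and Sod2 did not pass (-0.02). The Sod3 probe set was dim, with a mean of 6.65 that was below the median of the arrays, and the other Sod3 probe set was at -0.06. Sod1 had 5 probe sets, 2 higher and 1 lower, so its direction depends on the probe set. Of 4 Sod2 probe sets, 1 that was not the brightest was higher, at 0.67. Cat lost its call when single arrays were left out (adjusted p up to 0.082).

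Nrf2 partners and regulators had 5 higher, 8 lower and 7 not past the test of 20 genes (median 0.00). Brca1 (1.09), a DNA repair protein known to bind Nrf2, and Palb2 (0.58), which binds Keap1, rose. Nfe2l3 (-1.08), a relative of Nrf2 whose mean signal was below the median of the arrays, and the deacetylase Sirt1 (-0.75) fell. In the list for conjugation and efflux, 7 of 20 genes were higher and 9 lower (median -0.11). The largest changes were falls of the efflux pump Abcc1 (-0.66) and of the glutathione transferases Gstm4 (-0.64) and Gstm3 (-0.53), and a rise of Pir (0.63), an iron-binding nuclear protein. Around Hmox1, the heme and iron list had 2 higher, 2 lower and 3 not past the test of 7 genes, with falls of Fech (-0.62), the ferrochelatase, and the heme carrier Slc48a1 (-0.48) and rises of Abcg2 (0.33) and the biliverdin reductase Blvrb (0.24). The list of selenoprotein synthesis and selenoproteins had 3 higher, 10 lower and 5 not past the test of 18 genes (median -0.18). It mixes synthesis factors with selenoproteins and leaves out the members Gpx1, Gpx2 and Txnrd1, which are selenoproteins. Of these members, Gpx2 (0.52) and Txnrd1 (0.36) rose and Gpx1 (-0.05) did not pass, so the list does not stand for the whole class. Dio1, a deiodinase, had 8.73, 8.71 and 8.69 in deficient colon and 10.87, 10.81 and 10.75 in control colon (log2 fold change -2.10, SE 0.045, limma adjusted p = 9.88e-08). Its groups were wide apart. Selenom (-0.86), the selenium carrier Selenop (-0.78) and Trnau1ap (-0.51), a factor of selenocysteine tRNA, also fell.

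**Figure D3:**
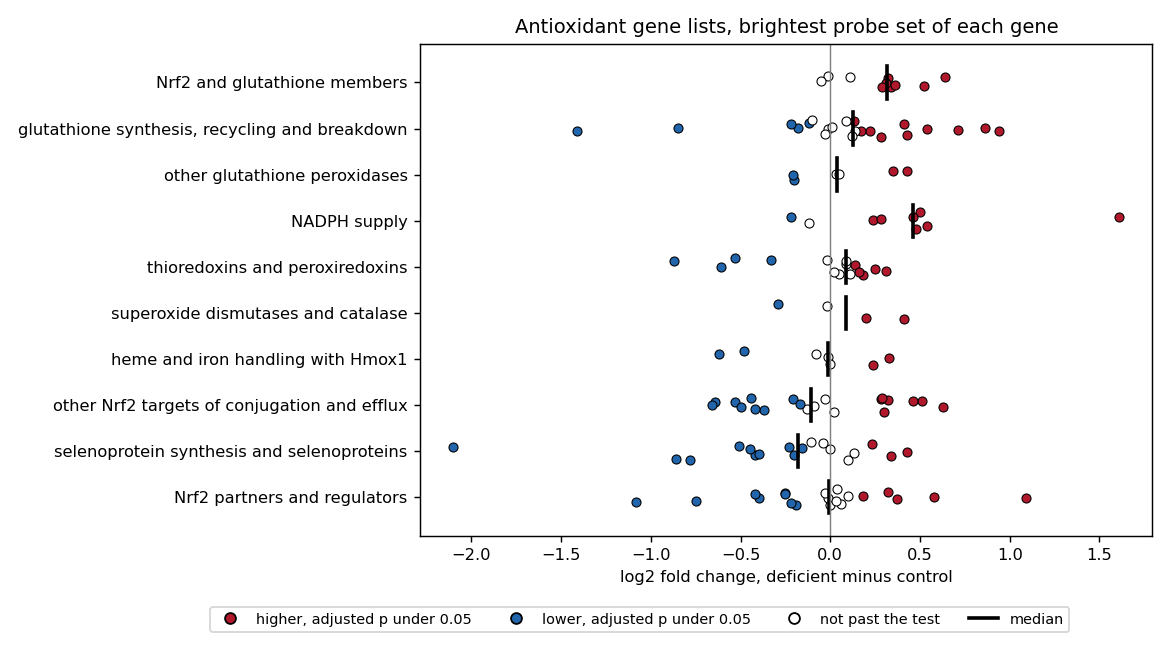
Log2 fold change, HDAC1/2 deficient over control (horizontal axis), of each measured gene in the 10 members and the 9 lists around them (rows), by its brightest probe set, coloured by the limma call, with a bar at each list's median. The NADPH supply row has its median at 0.46 and Me1 at 1.61, and the selenoprotein row has its median at -0.18 and reaches -2.10 with Dio1. Every row around the members, these included, holds genes on both sides of 0.

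Hdac1 was lower on all deficient arrays, at 9.27, 9.21 and 9.32, than on the control arrays, at 10.60, 10.53 and 10.56 (log2 fold change -1.30, limma adjusted p = 1.06e-06), while Hdac2 did not pass (0.05). Where its probe sets lie relative to the deleted part is not known here. By protein, the paper reports HDAC2 as depleted but patchy, with some mutant crypts and villi still stained. Why the Hdac2 signal was level was not tested. Colon epithelium markers were bright, with a mean log2 level of 13.42 to 13.43 on deficient and 13.30 to 13.31 on control arrays, and 5 of 12 were higher and 3 lower. Other markers moved with the groups. Macrophage genes (6 of 10 higher, none lower; the brightest were Cd14, Lyz2 and Csf1r, at log2 fold changes of 0.30, 0.48 and 1.12) averaged 8.70 to 8.71 on deficient and 8.16 to 8.25 on control arrays. B and plasma cell genes (6 of 6 higher), T cell genes (5 of 6 higher), small intestinal enterocyte genes (5 of 7 higher), neutrophil genes (2 of 5 higher), crypt proliferation genes (5 of 7 higher, 2 lower) and pancreatic acinar genes (5 of 5 higher, by 4.87 to 7.40 on the log2 scale) held genes that rose in the deficient colon. In contrast, 6 of 6 smooth muscle genes, 6 of 7 squamous genes (1 higher) and 3 of 6 goblet cell genes (1 higher) were lower. Mean levels were 10.87 to 10.92 on deficient and 9.70 to 9.71 on control arrays for the B and plasma cell list, and 12.21 to 12.27 on deficient and 12.71 to 12.74 on control arrays for smooth muscle. None of 3 erythrocyte genes passed limma (adjusted p from 0.403 to 0.866). Of 4 sex-linked genes, 3 were higher, among them Eif2s3y with a mean of 8.34 in deficient and 4.09 in control colon, and Xist was lower, at 12.02 in deficient and 12.85 in control colon. The sex-linked list averaged 8.30 to 8.42 on deficient and 6.19 to 6.40 on control arrays. Signals of both Xist and Eif2s3y were above the array medians in deficient colon. Whether a deficient array held RNA of mice of both sexes was not tested. If it did, the SDs, intervals and p-values would not measure variation between single mice. The part of these cell types in the changes of Gclc, Gpx2, Hmox1 and the other antioxidant genes was not tested. The sex-linked difference runs with the groups, so its part cannot be told apart from that of the genotype here. In bulk tissue, fewer cells of a type and less RNA per cell cannot be told apart.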

How the data were processed

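Deposited were log2 signals of each probe set, which the authors background-corrected and normalized by RMA in Flexarray 1.6.1. RMA values of dim probe sets carry background and compress changes. After 64 control probe sets of 45101 were removed, limma 3.58.1 (lmFit, eBayes; R 4.3.3) compared HDAC1/2 deficient with control arrays for each of 45037 probe sets without covariates, using Benjamini-Hochberg adjustment over all. By the platform annotation, 34945 probe sets have 1 symbol, 932 several and 9160 none, and only those with 1 were named. A gene other than a member is read from its brightest probe set (mean of 6 arrays), and signals of different probe sets are not compared as levels. Groups and replicate numbers come from the labels, and the age from the paper.

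The members and lists were chosen with earlier results of these data known. The text names all members, the 4 largest changes past the test in each pathway list, up to 3 genes of a marker list, and Hdac1 and Hdac2. Pairs of genes were compared by exact two-sided permutation. Alternatives were the methods' t-test (with unequal variances), quantile normalization again, median centring, a filter on dim probe sets, other variance models, weighted arrays, removal of probe sets of shared sequence or of single arrays, the mean of probe sets, the replicate block and other promoter letters. Tested on simulated data of 45037 probe sets for this comparison, limma recovered 40 of 50 at a log2 change of 0.5 and called 9 of 44837 unchanged probe sets. The simulation changed a far smaller share of probe sets than the 39.8% that passed here, and 0.5 was its smallest change. It therefore gives no rate of recovery or of false calls for these data, nor for the member changes below 0.5. No batch was tested, since scan dates were not in the sources used here. Protein and enzyme assays were not analysed here.

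Arrays of a group correlated at 0.9984 to 0.9988 and arrays of different groups at 0.9824 to 0.9828 across probe sets. No pair of arrays was identical. The number of arrays limits the precision.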

Additional observations from a re-analysis of the deposited data

How the results depend on the processing

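Over the 19 member probe sets, 270 of 280 refits kept the direction and the side of the threshold of the reported value, 4 newly passed, 3 no longer passed and 3 changed sign without passing. The changes of sign were in Nfe2l2 1416543_at, reported at -0.01, which was 0.00 without deficient replicate 3 and 0.01 without control replicate 3 (-0.03 to 0.01 over single arrays left out), and in Srxn1 1419942_at, reported at 0.04, which was -0.05 without control replicate 3 (-0.05 to 0.11). The count of 11 higher member probe sets lay between 9 (without probe sets of shared sequence) and 12 (single arrays left out), and the 1 lower probe set, the dim one of Nfe2l2, was the weak point. It was 0 by the methods' t-test after adjustment and 0 when probe sets up to percentile 40 of mean signal were dropped, which leaves 17 of the 19, and the count was 2, with Gpx1 added, by the unadjusted t-test and with a trended, robust variance model. When the probe sets of a gene were averaged, 1 member gene, Nfe2l2, was lower instead of 0 (log2 fold change -0.20, limma adjusted p = 0.0175). Unadjusted, the Srxn1 probe set 1425351_at had p = 0.0606 and Gpx1 p = 0.0332 by the same t-test, a test whose exact counterpart cannot go below 0.1 here. The promoter count of 4 genes fell to 1 with TGACTCA alone and 1 with TGAGNNNGC alone, in each case Srxn1. With single arrays left out, 7234 to 7887 of all probe sets were higher and 8230 to 9026 lower, member probe sets were 11 to 12 higher and 1 lower, and the genes around them 40 to 43 higher and 35 to 40 lower. Deviations from the group means correlated at 0.0964, 0.064 and -0.0258 between arrays of the same replicate number. The other combinations ran from -0.103 to 0.0304. These small values do not settle whether the arrays were paired. With the replicate block, 11 member probe sets were higher and 1 lower, and 8163 and 9120 of all probe sets.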
